A study of Homo sapiens with 12 samples.

Results

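The 8 genes described here, PAX6, SIX3, SIX6, LHX2, RAX, SOX2, SOX4 and SOX11, encode transcription factors of the eye field and of retinal progenitors. They were taken by gene symbol from a count table of 27505 features, of which 19974 are Ensembl genes, and all 8 are in it. The table comes from RNA-seq of WERI-Rb-1 (WERI from here on) and Y79, 2 established lines grown from human retinoblastomas, both given as wild type in the labels and kept in RPMI medium with serum. Each line spent 12 h with 50 nM THZ1 or 0.1% DMSO, which gave 4 groups (WERI DMSO, WERI THZ1, Y79 DMSO and Y79 THZ1) with 3 samples each and 12 libraries in all. The question put by the design is what THZ1 does to transcription in these cells. THZ1 binds covalently to CDK7, a kinase of the general transcription factor TFIIH, and also to the related kinases CDK12 and CDK13. Each line stands for 1 tumour only, and the series refers to retinoblastoma with MYCN amplification. Its text calls the samples biological but does not tie them to separate cultures, so p-values measure the spread between these samples.

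The eye field is the part of the anterior neural plate that will form the eyes, and it is set up by a group of homeodomain and paired-box factors that switch on and hold one another's expression. RAX, SIX3, SIX6, LHX2 and PAX6 are core genes of that group, and losses of several of them are known from people born with small or missing eyes. SOX2 keeps neural progenitors dividing, while the related SoxC factors SOX4 and SOX11 act later, when progenitors leave the cycle and turn into neurons. Retinoblastoma arises from developing retinal cells with a cone-like character.

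The total per library ranged from 29677575 to 37433574 counts. Of 15 photoreceptor markers, 13 had a mean of at least 1 CPM in each of the 4 groups, and their summed level ranged from 1684 to 2764 CPM (counts-per-million after scaling with TMM factors, which take most genes to be unchanged). Markers of other cell types were mixed. The Mueller glia and astrocyte genes RLBP1 and S100B and the pigment gene TYR were at or near 0, but GLUL of the glial list had group means of 73.7 to 499 CPM, APOE 24 to 125 CPM, SLC1A3 85 to 107 CPM in WERI, and DCT of the pigment list 55.5 to 544 CPM. The second Y79 THZ1 library stood apart from the other 2 of its group, with a chi-square per degree of freedom of 72.87 and 74.38 against 7.73 to 13.8 for all other pairs of replicates. In bulk RNA, fewer cells of a type and less RNA per cell cannot be told apart.

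The 8 genes differed widely in level, and 2 of them were next to absent. Levels of different genes are compared per kilobase of exon (CPM per kb). In WERI DMSO, SIX3 stood highest at 85.8 ± 2.95 CPM per kb (SD, n = 3, as for all levels here), followed by RAX at 60.8 ± 2.83, SOX11 at 38.6 ± 1.52 and SOX4 at 16.6 ± 1.02 CPM per kb. SIX6 at 2.68 ± 0.44 and LHX2 at 0.58 ± 0.0191 CPM per kb came far below, and no 2 neighbours among these 6 overlapped. In Y79 DMSO, SIX3 at 27.0 ± 2.4 and RAX at 25.3 ± 1.79 CPM per kb overlapped and led, with SOX4 at 21.9 ± 0.872, SOX11 at 12.2 ± 0.654 and LHX2 at 7.12 ± 0.811 CPM per kb behind them. SIX6 lay at 0.175 ± 0.0517 CPM per kb in that group. Under THZ1 the order was another: in Y79, SOX4 led with 50.7 ± 2.14 CPM per kb, ahead of SOX11 and SIX3, and RAX followed with 6.02 ± 0.594. In WERI under THZ1, SIX3 was still the highest with 107 ± 5.34 CPM per kb, and RAX with 23.2 ± 1.01 now came after SOX11 and SOX4. Together the 8 genes held 0.108% of all counts in WERI DMSO, 0.105% in WERI THZ1, 0.0453% in Y79 DMSO and 0.0417% in Y79 THZ1 (means of 3 libraries).

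**Figure D1:**
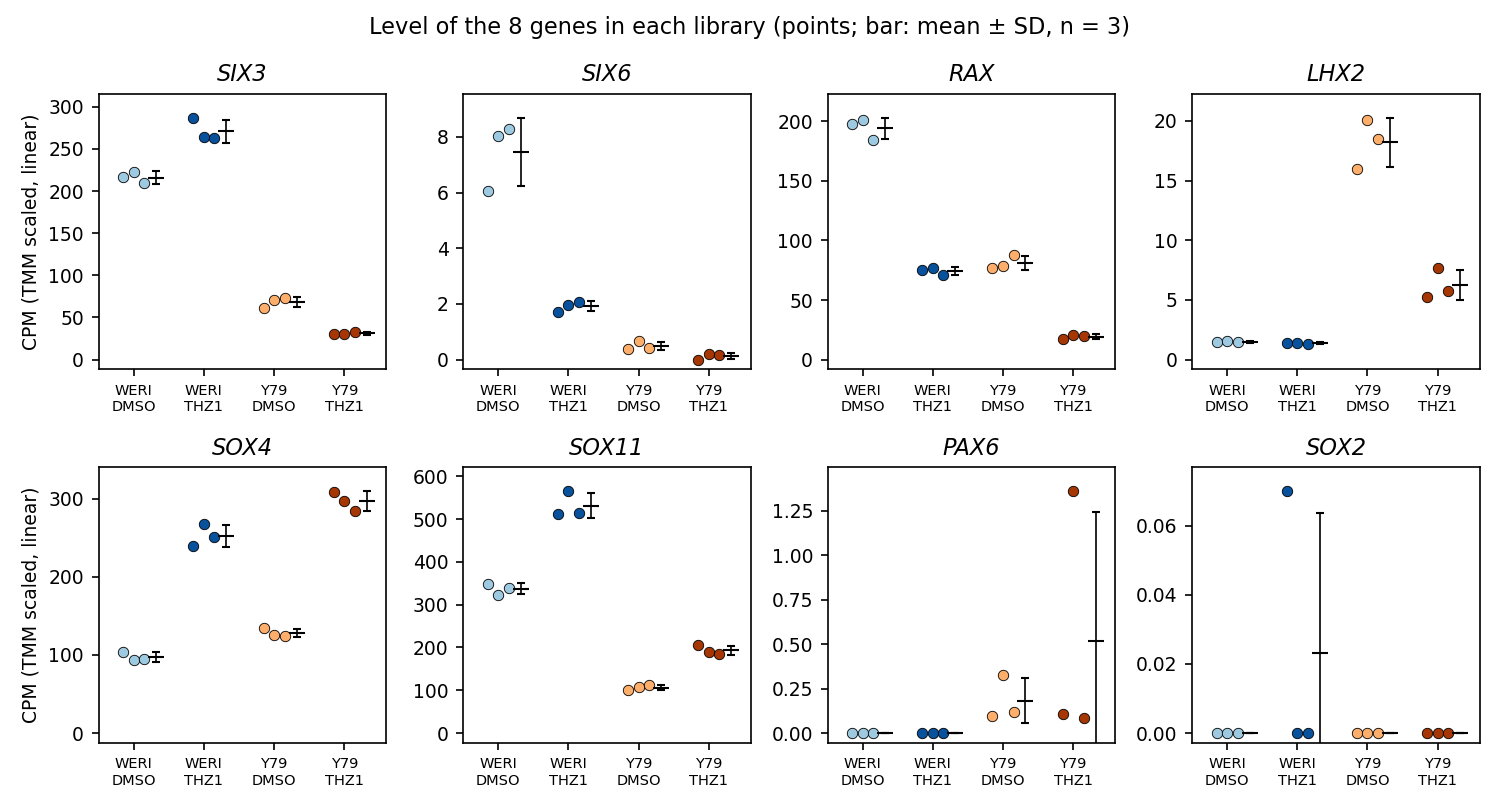
Level of each of the 8 genes in the 12 libraries, in TMM-scaled CPM on linear axes that differ between panels. Points are libraries and the bar beside them is the mean ± SD of 3. On this scale SOX4 and SOX11 sit higher under THZ1 in both lines (lower with mitochondrial scaling), RAX and SIX6 lower, and SIX3 goes from 216 to 271 CPM in WERI but from 68.1 to 31.1 CPM in Y79; PAX6 and SOX2 are at or close to 0.

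PAX6, the paired-box factor that heads the eye programme in many animals, lies on GRCh38 chr11:31784779-31818062 (minus strand, ENSG00000007372). It had 0 counts in all 6 WERI libraries. The Y79 DMSO libraries held 4, 13 and 5 counts and the Y79 THZ1 libraries 3, 28 and 2, so the groups overlapped and the highest value came from the library that stood apart. Its exons share 5241 bases with ELP4, a gene on the opposite strand that had 284 to 401 counts in WERI and 416 to 966 in Y79. The library kit does not mark strand, so reads of the overlapping exons cannot be told apart. SOX2, a progenitor factor with 1 exon on chr3:181711924-181714436 (plus strand, ENSG00000181449), had 0 counts in 11 libraries and 2 counts in the first WERI THZ1 library. A count of 0 allows up to 3 counts in a library, which is 0.0652 to 0.145 CPM here, for counting error only. Neither gene passed the filter on low counts, so neither was tested. The remaining 6 were tested in one edgeR quasi-likelihood model of all 12 libraries, with Benjamini-Hochberg adjusted p-values over all features and a call at an adjusted p under 0.05. Without the filter PAX6 was called higher in Y79 DMSO than in WERI DMSO (adjusted p 0.0224, and 0.00871 in DESeq2).

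Under THZ1 the 6 tested genes went in different directions. In WERI, SIX3, SOX4 and SOX11 rose and SIX6 and RAX fell, which makes 3 called higher and 2 lower, where 27.7% of all 14865 tested Ensembl genes were called higher and 37.2% lower (64.8% in all). In Y79, SOX4 and SOX11 rose and SIX3, SIX6, LHX2 and RAX fell, or 2 higher and 4 lower, where 29.9% of tested genes were called higher and 38.5% lower (68.3% in all). A call of either kind was therefore common among all genes. The median log2 fold change of these 6 was 0.10 in WERI and -1.34 in Y79, beside -0.11 and -0.09 over all tested genes. CPM of THZ1 and DMSO libraries did not overlap for any of the 6 in either line, as was the case for 75.9% of all tested genes in WERI and 68.9% in Y79.

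**Figure D2:**
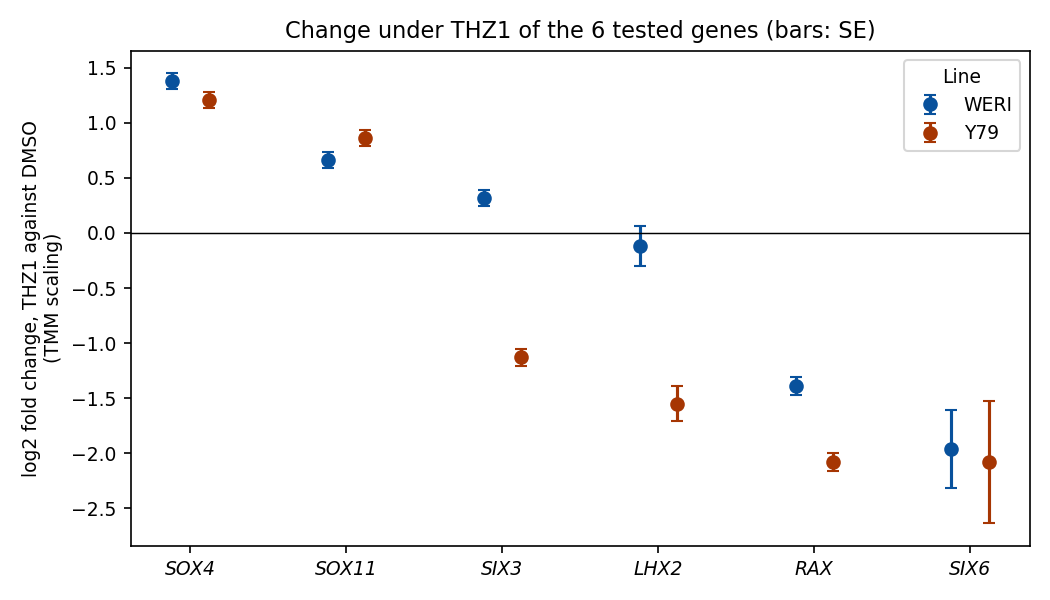
Log2 fold change of THZ1 against DMSO for the 6 tested genes, with the standard error as bars, in WERI and in Y79 (TMM scaling, 3 libraries a group). On this scale SOX4 and SOX11 lie above 0 in both lines (below it with mitochondrial scaling) and RAX and SIX6 below, while SIX3 (0.32 and -1.13) and LHX2 (-0.12 and -1.55) differ between the lines.

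RAX, LHX2 and SIX6 are shown here by the bases ahead of their RefSeq start sites, since they are the homeobox genes that lost most under THZ1 in that line. The sequences run 5′ to 3′ on the gene's strand, come from RefSeq (GRCh38.p14) and stop where a GENCODE v29 exon begins within the window. GENCODE v29 begins RAX at base 59274086 where RefSeq begins it at 59273454, and LHX2 at base 124001670 where RefSeq has 124011768, so both of these windows lie inside the GENCODE gene.
RAX, chr18:59273455-59273704, minus strand: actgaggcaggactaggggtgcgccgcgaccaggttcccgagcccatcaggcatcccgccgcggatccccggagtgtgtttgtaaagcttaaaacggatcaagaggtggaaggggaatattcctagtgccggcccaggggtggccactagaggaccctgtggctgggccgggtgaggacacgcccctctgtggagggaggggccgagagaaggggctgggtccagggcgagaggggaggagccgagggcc
LHX2, chr9:124011518-124011609, plus strand: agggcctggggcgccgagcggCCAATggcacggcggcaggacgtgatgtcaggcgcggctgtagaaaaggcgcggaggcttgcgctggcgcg
SIX6, chr14:60508896-60508950, plus strand: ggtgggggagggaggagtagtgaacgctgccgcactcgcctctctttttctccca
Capitals mark a match to one of 5 short motifs, searched on both strands of the 250 bases before the start: TATAAA (the TATA box), CCAAT (the CCAAT box), GGGCGG (the GC box), CACGTG (an E-box) and TAATCC (a core bound by OTX2 and CRX). No match in the members' windows overlapped another. Of 35116 RefSeq windows of that length, 10.7% held TATAAA, 32% CCAAT, 42.6% GGGCGG, 6.34% CACGTG and 5.62% TAATCC. The RAX window held none of the 5, and that of LHX2 held 1 CCAAT, 229 bases before the start. SIX6 had 2 CCAAT matches and 1 GGGCGG match, all within the stretch that GENCODE counts as exon and that is not shown. Among the SOX genes, the SOX4 window, all 250 bases of which GENCODE counts as exon, held 4 CCAAT matches and that of SOX2 held 1 CCAAT and 1 GGGCGG. A match is only a run of letters, and its absence says nothing on the factors named.

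RAX, the retina and anterior neural fold homeobox gene without which no optic vesicle forms, fell in both lines. It lies on chr18:59267035-59274086 (minus strand, ENSG00000134438) and has up to 3 exons. The WERI DMSO libraries had 198, 201 and 184 CPM and the WERI THZ1 libraries 75.1, 77.1 and 70.8 CPM. Every THZ1 library was thus well below every DMSO library, and the gene fell 2.61-fold (log2 fold change -1.39 ± 0.0807 SE, edgeR adjusted p 6.1e-09). In WERI, 10.4% of all tested genes had a lower log2 fold change. In Y79, DMSO libraries had 77.0, 78.2 and 87.5 CPM and THZ1 libraries 17.1, 20.7 and 19.9 CPM. Here RAX fell 4.21-fold (log2 fold change -2.08 ± 0.0856, edgeR adjusted p 1.95e-10), and 5.55% of all tested genes had a lower log2 fold change. The fall was larger in Y79 than in WERI by 0.69 on the log2 scale (difference -0.69 ± 0.115, edgeR adjusted p 0.00114). For this difference 11.9% of all tested genes had a lower value.

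SIX6, the optic homeobox factor that keeps retinal progenitors dividing, also fell in both lines, from low levels. It lies on chr14:60508951-60512850 (plus strand, ENSG00000184302) with 2 exons. In WERI it went from 6.05, 8.05 and 8.29 CPM with DMSO to 1.71, 1.96 and 2.07 CPM with THZ1. The groups were far apart, and the fall was 3.89-fold (log2 fold change -1.96 ± 0.353, edgeR adjusted p 0.00025). In Y79 the counts themselves were small, 16, 26 and 18 with DMSO and 0, 4 and 4 with THZ1. The groups did not overlap there either (log2 fold change -2.08 ± 0.556, edgeR adjusted p 0.00467), but the call was lost when only the Y79 libraries were fitted (adjusted p 0.0549), and leaving out 1 library at a time gave -2.62 to -1.45. The changes in the lines differed by -0.12 (95% interval -1.39 to 1.15, edgeR adjusted p 0.932), an interval too wide to show whether they are alike.

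SIX3, which represses WNT signalling in the forebrain and allows the eye field to form, was the only tested member called in opposite directions in the lines on the TMM scale. It lies on chr2:44941898-44946077 (plus strand, ENSG00000138083) with 2 exons. The WERI DMSO libraries had 217, 223 and 209 CPM and the WERI THZ1 libraries 287, 264 and 263 CPM. All 3 treated libraries were higher, with a rise of 1.25-fold (log2 fold change 0.32 ± 0.074, edgeR adjusted p 0.00166). Of all tested genes, 32.4% had a higher log2 fold change. This small rise depends on the scaling: with library size alone the log2 fold change was -0.12 (adjusted p 0.228). In Y79, DMSO libraries had 61.2, 70.5 and 72.6 CPM and THZ1 libraries 30.1, 30.4 and 32.8 CPM. Every treated library lay at about the same low level, and SIX3 fell 2.19-fold (log2 fold change -1.13 ± 0.0777, edgeR adjusted p 1.74e-08). There 18.7% of all tested genes had a lower log2 fold change. The difference between the changes was -1.46 ± 0.107 on the log2 scale (edgeR adjusted p 6.29e-06), and 3.19% of all tested genes had a lower value.

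LHX2, a LIM homeodomain factor needed for the optic vesicle to become an optic cup, had a level that differed strongly between the lines. It lies on chr9:124001670-124033301 (plus strand, ENSG00000106689) with 5 exons, 105 bases of which it shares with AC006450.2. In Y79 it went from 16.0, 20.1 and 18.5 CPM with DMSO to 5.27, 7.65 and 5.78 CPM with THZ1. That is a 2.93-fold fall with no overlap (log2 fold change -1.55 ± 0.16, edgeR adjusted p 1.02e-06). In WERI it had 1.48, 1.53 and 1.44 CPM with DMSO and 1.43, 1.36 and 1.31 CPM with THZ1, from 38 to 66 counts a library. The groups lay just beside each other, and the log2 fold change of -0.12 (95% interval -0.54 to 0.31) was not called (edgeR adjusted p 0.61), although with library size alone it was (-0.56, adjusted p 0.00913). The difference between the changes was -1.43 ± 0.243 (edgeR adjusted p 0.00124).

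SOX4 and SOX11 rose in both lines on the TMM scale and with library size alone, and fell with the mitochondrial scaling described further on. SOX4, a SoxC factor of newborn neurons, lies on chr6:21592768-21598619 (plus strand, ENSG00000124766), has 1 exon and shares 168 bases with AL512380.2. The WERI DMSO libraries had 104, 93.1 and 94.6 CPM and the WERI THZ1 libraries 239, 267 and 251 CPM. All treated libraries stood far above the untreated ones, a rise of 2.59-fold (log2 fold change 1.38 ± 0.0711, edgeR adjusted p 2.25e-09), and 7.06% of all tested genes had a higher log2 fold change. In Y79, DMSO libraries had 134, 126 and 124 CPM and THZ1 libraries 309, 297 and 284 CPM. The rise was 2.32-fold (log2 fold change 1.21 ± 0.0707, edgeR adjusted p 3.63e-09), and 12.9% of all tested genes had a higher log2 fold change. The changes in the lines differed by -0.16 (95% interval -0.39 to 0.07, edgeR adjusted p 0.296).

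SOX11, the other SoxC factor, lies on chr2:5692667-5701385 (plus strand, ENSG00000176887), has 1 exon and shares 74 bases with AC108025.2. In WERI it had 349, 323 and 339 CPM with DMSO and 512, 565 and 515 CPM with THZ1. It rose 1.58-fold with no overlap (log2 fold change 0.66 ± 0.0718, edgeR adjusted p 2.35e-06). In Y79 it had 100, 107 and 112 CPM with DMSO and 205, 189 and 184 CPM with THZ1. The rise there was 1.82-fold (log2 fold change 0.86 ± 0.0726, edgeR adjusted p 1.36e-07), and the changes differed by 0.20 (95% interval -0.03 to 0.44, edgeR adjusted p 0.19). Of all tested genes, 21.6% in WERI and 19.8% in Y79 had a higher log2 fold change than SOX11.

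Of the 6 tested genes, then, 3 changed differently in the lines (SIX3, LHX2 and RAX), each with the lower value in Y79, where 13.2% of all tested genes were called lower and 8.74% higher for this difference (22% in all). The median difference was -0.43 over the 6 and -0.01 over all tested genes. Without the second Y79 THZ1 library these differences were -1.44, -1.61 and -0.75 with adjusted p-values of 2.32e-08, 4.97e-05 and 1.96e-05, and no call of the 6 genes was lost in any of the 4 comparisons.

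All directions above are on the TMM scale. Mitochondrially encoded mRNAs took 3.87% ± 0.111 of counts in WERI DMSO, 10.6% ± 0.726 in WERI THZ1, 4.2% ± 0.262 in Y79 DMSO and 9.28% ± 0.729 in Y79 THZ1. These mRNAs are made by the polymerase of the mitochondrion. When libraries were scaled to the 13 of them, the median of all tested genes fell to -2.01 in WERI and -1.80 in Y79, and all 6 members were called lower in both lines. SOX4 then stood at -0.52 in WERI and -0.50 in Y79, SOX11 at -1.24 and -0.85, and SIX3 in WERI at -1.57, each above the median of all genes. A change of scaling moves all genes of a comparison by nearly the same amount, so their place relative to that median is kept by construction. The number of all genes called higher and lower in WERI was 4115 and 5523 with TMM, 2221 and 7961 with library size alone and 111 and 13328 with mitochondrial scaling. In Y79 the numbers were 4439 and 5721 with TMM, 2175 and 8334 with library size and 283 and 12188 with mitochondrial scaling. For the difference between the lines they were 1299 and 1965 with TMM, 740 and 2696 with library size and 1778 and 713 with mitochondrial scaling, and the same count of 3 members was called lower under each. Which scaling is nearest to RNA per cell was not tested.

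**Figure D3:**
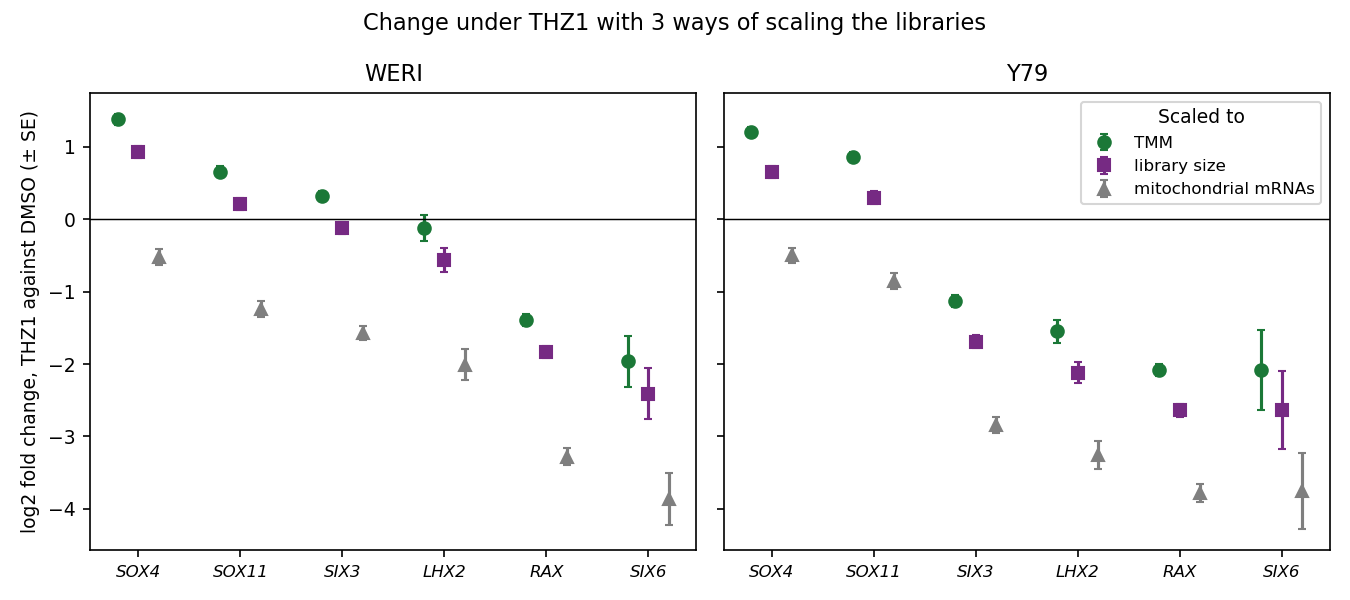
Log2 fold change (± SE) of the 6 tested genes in WERI and Y79 with the libraries scaled by TMM, by library size or to mitochondrially encoded mRNAs. A change of scaling moves all genes of a line by nearly the same amount, so their order is kept by construction. Only the zero line moves: SOX4 in WERI goes from 1.38 to -0.52 and RAX in Y79 from -2.08 to -3.78.

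Ratios of members within a library need no scaling, and they were added after the counts had been seen. RAX had 200 ± 13.8 counts per 100 SOX4 counts in WERI DMSO and 29.5 ± 1.72 in WERI THZ1. In Y79 it had 63.4 ± 6.63 with DMSO and 6.5 ± 0.839 with THZ1, a fall of 9.78-fold against 6.78-fold in WERI. So the eye field gene lost ground to the SoxC gene in both lines. SIX3 had 64.4 ± 4.24 counts per 100 SOX11 counts in WERI DMSO and 64.1 ± 2.65 in Y79 DMSO. With THZ1 that ratio was 51.2 ± 4.65 in WERI and 16.2 ± 1.56 in Y79. RAX per 100 SIX3 counts went in WERI from 89.7 ± 1.46 to 27.5 ± 1.59 and in Y79 from 119 ± 7.56 to 61.8 ± 5.86. SOX11 per 100 SOX4 counts went in WERI from 347 ± 11.4 to 210 ± 4.81 and in Y79 from 83.1 ± 7.64 to 64.8 ± 1.39. THZ1 and DMSO libraries did not overlap in any of the 8 comparisons, each with p = 0.1 (adjusted 0.1) in a two-sided exact permutation test, the smallest p that 3 against 3 libraries can give.

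**Figure D4:**
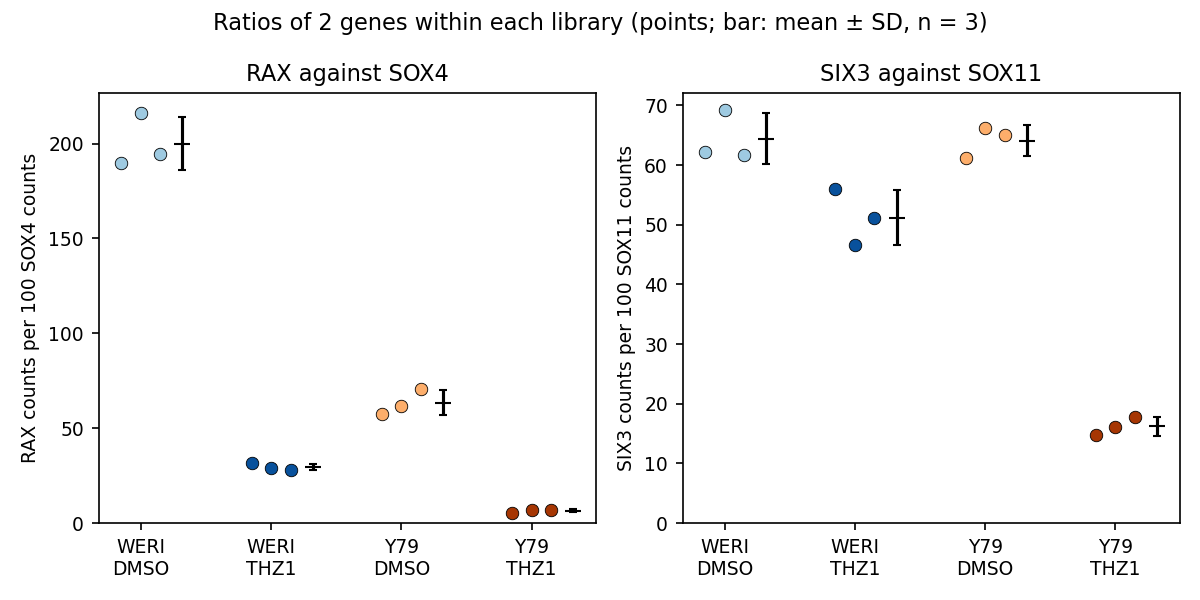
RAX counts per 100 SOX4 counts (left) and SIX3 counts per 100 SOX11 counts (right) in each library, on linear axes from 0, with the mean ± SD of 3 beside the points. The RAX ratio drops in WERI from 200 to 29.5 and in Y79 from 63.4 to 6.5; the SIX3 ratio starts at 64.4 and 64.1 and drops to 51.2 in WERI and 16.2 in Y79.

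The lines differed in these genes before any treatment. With DMSO, Y79 had more LHX2 and SOX4 than WERI and less SIX3, SIX6, RAX and SOX11, so that all 6 tested genes were called, 2 higher and 4 lower, where 32.3% of all tested genes were called higher and 32.6% lower (64.9% in all). None of the 6 overlapped between the lines, as was true of 77.9% of tested genes. LHX2 was 12.3-fold higher in Y79 (log2 fold change 3.61 ± 0.175, edgeR adjusted p 6.0e-10), and 1.93% of tested genes had a higher value. SIX6 was 15.2-fold lower in Y79 (log2 fold change -3.93 ± 0.393, edgeR adjusted p 1.04e-06). SIX3 and SOX11 were 3.18-fold and 3.17-fold lower, both with a log2 fold change of -1.67, and RAX was 2.4-fold lower (-1.26 ± 0.0801). The share of tested genes with a lower value was 5.87% for SIX6, 13.2% for SIX3 and SOX11 and 16.6% for RAX. SOX4 differed least, at 1.32-fold higher in Y79 (0.40 ± 0.0701, edgeR adjusted p 0.000236), and this call was lost with mitochondrial scaling (0.12, adjusted p 0.36). This comparison shares its DMSO libraries with those of THZ1, so no relation between them is drawn.

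Other genes of the eye field and progenitor programme were followed in a list of 34, of which 28 were tested. In WERI 2 were called higher and 11 lower, and in Y79 5 higher and 15 lower, with medians of -0.21 and -0.54. Some of these calls rest on very few counts. VAX1, called higher in Y79, had 0 counts with DMSO and 3 with THZ1 over 3 libraries each. SFRP2, called lower in WERI, had 28 with DMSO and 0 with THZ1. Over all tested genes 27.7% were called higher and 37.2% lower in WERI and 29.9% and 38.5% in Y79, with medians of -0.11 and -0.09, and the counts of this list and the next ones are to be read against those shares. Here and in the lists that follow, values are on the TMM scale. Apart from genes given only for their few counts, every rise named turned negative with mitochondrial scaling. Those of NES, HMGA2, SOX12, LHX3 and INA in WERI and of LDB1 in Y79 also turned negative with library size alone. RAX2, the retina-specific relative of RAX, fell from 187 ± 7.18 to 61.1 ± 3.63 CPM in WERI and from 166 ± 13.4 to 40.3 ± 2.11 CPM in Y79 (log2 fold change -1.62 and -2.04, edgeR adjusted p 1.13e-09 and 1.08e-10). OTX2, which commits progenitors to the photoreceptor fate, fell from 610.0 ± 14.0 to 159 ± 14.6 CPM in Y79, and also in WERI (log2 fold change -1.53). LIN28B, an RNA-binding protein that blocks let-7 processing, fell in both lines (log2 fold change -1.94 and -1.62). NES, the progenitor filament protein nestin, rose from 432 ± 15.1 to 575 ± 16.9 CPM in WERI and from 10.2 ± 0.617 to 16.2 ± 3.6 CPM in Y79. The NES call in Y79 was lost with library size alone (0.09, edgeR adjusted p 0.439). HMGA2, a chromatin protein of fetal cells, rose by 0.27 in WERI and fell by 0.54 in Y79 on the log2 scale. TBX2, a T-box factor of the dorsal retina, went from 0.755 ± 0.141 to 1.3 ± 0.423 CPM in Y79, where it was called higher (0.76), and was called lower in WERI (-0.79). The TBX2 call in Y79 was lost with library size alone (0.19, edgeR adjusted p 0.494) and when only the Y79 libraries were fitted (adjusted p 0.108). It was also lost without the first Y79 DMSO (0.60, adjusted p 0.0646) or the second Y79 THZ1 library (0.47, adjusted p 0.0958).

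The network that works with SIX3 and SIX6 was followed in a list of 10 genes, those of the EYA and DACH families with relatives of SIX3. Of these 8 were tested, with 0 higher and 6 lower in WERI and 0 higher and 5 lower in Y79 (medians -0.88 and -1.26), where 37.2% and 38.5% of all tested genes were called lower. The 6 in WERI include SIX2, which had only 24 counts with DMSO and 0 with THZ1 over 3 libraries each. At an unadjusted p under 0.05, 0 were higher in either line, and DESeq2 called 0 higher in either line. EYA3, a phosphatase and coactivator of these homeodomain proteins, fell from 30.1 ± 1.37 to 7.15 ± 0.478 CPM in WERI and from 49.4 ± 0.59 to 17.0 ± 1.17 CPM in Y79 (log2 fold change -2.07 and -1.54). EYA2 fell too (log2 fold change -1.33 in WERI and -1.29 in Y79), as did EYA1 (-0.73 and -1.66).

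Of the other SOX genes, 17 were listed and 10 tested, with 1 called higher and 2 lower in WERI and 1 higher and 3 lower in Y79 (medians -0.38 and -0.02). SOX12, the third SoxC gene, rose from 67.1 ± 2.55 to 83.3 ± 4.53 CPM in WERI (log2 fold change 0.31 ± 0.0964, edgeR adjusted p 0.0124) and stood at -0.05 in Y79 (edgeR adjusted p 0.674). The SOX12 call was lost without the second WERI THZ1 library (0.25, adjusted p 0.0857). SOX7, an endothelial SoxF gene, fell in both lines (log2 fold change -0.73 in WERI and -1.84 in Y79). The SOX2 relatives SOX1 and SOX3 had 0 counts in all 12 libraries. Among 20 LIM homeobox genes and cofactors, the family of LHX2, 16 were tested, with 1 higher and 8 lower in WERI and 1 higher and 7 lower in Y79 (medians -0.35 and -0.68). LMO2, a LIM-only adaptor, fell in WERI (log2 fold change -1.52) and from 41.1 ± 2.83 to 7.35 ± 0.983 CPM in Y79 (log2 fold change -2.48). LMO4 fell in both (-1.08 and -0.92), and LMO3 fell in WERI (-1.20) and stood at -0.42 in Y79 (edgeR adjusted p 0.105). LHX3 rose by 0.23 in WERI and stood at 0.03 in Y79 (edgeR adjusted p 0.734). LDB1, the cofactor that bridges LIM proteins, rose by 0.39 in Y79 and stood at 0.17 in WERI (edgeR adjusted p 0.0655).

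Early neuron genes, a class that SoxC factors are known to act on, were mixed. All 18 were tested, and 7 were called higher and 2 lower in WERI and 8 higher and 4 lower in Y79 (medians 0.32 and 0.22). These counts depend on the scaling: library size alone gave 4 higher and 6 lower in WERI and 4 higher and 10 lower in Y79 (medians -0.13 and -0.29), and mitochondrial scaling gave 0 higher in either line, with 16 lower in WERI and 14 lower in Y79. STMN1, a tubulin-binding protein of growing neurites, rose from 1350 ± 25.7 to 4251 ± 235 CPM in WERI and from 1384 ± 58.2 to 3912 ± 875 CPM in Y79. STMN3 rose by 1.34 in WERI and by 1.54 in Y79 on the log2 scale. The neuronal RNA-binding proteins ELAVL2 and ELAVL3 fell in WERI (log2 fold change -2.05 and -1.27) and stood at -0.31 and -0.34 in Y79 (edgeR adjusted p 0.18 and 0.23). MAP2, a dendrite protein, fell by 0.74 in Y79 and stood at 0.22 in WERI (edgeR adjusted p 0.091). INA, a neurofilament protein, rose by 0.27 in WERI and fell by 0.29 in Y79. The INA call in WERI was lost without the third WERI DMSO (adjusted p 0.0534) or the second WERI THZ1 library (adjusted p 0.0611), and that in Y79 with RLE factors (-0.19, adjusted p 0.0509).

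Markers of retinal and other cell types moved in the same libraries. The 15 photoreceptor markers summed to 2359 to 2413 CPM in WERI DMSO, 2615 to 2764 in WERI THZ1, 1684 to 1723 in Y79 DMSO and 2431 to 2692 in Y79 THZ1. Of these markers, 8 were called higher and 5 lower in WERI and 6 higher and 7 lower in Y79. AIPL1 alone went from 437 to 897 CPM in WERI and from 684 to 1666 CPM in Y79. The higher sums under THZ1 thus rest on that gene and do not stand for the list as a whole. The 8 Mueller glia and astrocyte markers summed to 208 to 217, 337 to 351, 512 to 537 and 507 to 585 CPM in the same order of groups, with 2 of 5 tested called higher in WERI and 2 higher and 1 lower in Y79, and with S100B at 0 in all 4 groups. The 8 pigment epithelium markers summed to 59.4 to 67.9, 129 to 156, 256 to 274 and 521 to 620 CPM, with 1 of 5 tested called higher in each line and TYR at 0 in all groups. The marker called was DCT, which made up most of these sums (55.5 to 114 CPM in WERI and 256 to 544 CPM in Y79). The 15 inner retinal neuron markers summed to 529 to 577, 579 to 634, 266 to 279 and 276 to 327 CPM, with 3 higher and 2 lower in WERI and 6 higher and 1 lower in Y79 of 12 tested, and TFAP2B at 0 throughout. Of the 2 lower in WERI, TRPM1 rests on 23 counts with DMSO and 0 with THZ1. The 11 stromal, vascular and blood markers summed to 26.9 to 31.5, 59.9 to 62.1, 10.8 to 14.4 and 30.3 to 47.5 CPM, with 3 of 9 tested called higher in WERI and 4 in Y79. Of the 4 in Y79, PECAM1 rests on 0 counts with DMSO and 10 with THZ1. All these sums and calls are on the TMM scale. With mitochondrial scaling, 0 photoreceptor markers were called higher and 13 lower in each line. That scaling also gave 0 higher in the glial, pigment and inner retinal lists. Of the stromal, vascular and blood markers it called 0 higher in WERI and 1 in Y79. The part of these markers in the changes of the eye field genes was not tested.

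For each tested member, the gene whose log2 CPM followed it most closely over the 12 libraries was found among the 10117 genes whose average log2 CPM was 3 or more, by the root mean square difference after centring. TCF19, a cell cycle gene, was nearest to RAX (0.153, where the median gene stood at 1.23), with 116 and 42.2 CPM in WERI and 49.1 and 13 CPM in Y79 for DMSO and THZ1. HNRNPA3, a splicing factor gene, was nearest to SOX4 (0.0802, median 0.894), rising from 715 to 1699 and from 863 to 1991 CPM. ACSL6 was nearest to SOX11 (0.114), EPB41L1 to SIX3 (0.169), CPLX4 to LHX2 (0.269) and TDRD7 to SIX6 (0.566). Each of these genes was picked for its likeness, so each goes with its member by construction. EPB41L1 had 43.2 and 49.7 CPM in WERI and 11.5 and 5.76 CPM in Y79 for DMSO and THZ1. Its change in WERI was not called (log2 fold change 0.20, edgeR adjusted p 0.135). CPLX4 had 3.86 and 4.12 CPM in WERI and 36.8 and 19.5 CPM in Y79, and it was called lower in Y79 alone (-0.92, edgeR adjusted p 3.96e-05, against 0.09 and 0.633 in WERI). The log2 fold changes in WERI and Y79 were -1.84 and -1.64 for TDRD7 and 0.52 and 0.73 for ACSL6. With library size alone, ACSL6 was called in neither line (0.07 in WERI and 0.17 in Y79, edgeR adjusted p 0.508 and 0.125).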

How the data were processed

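The authors deposited a table of raw read counts per gene. Per the submitters' processing notes, Cufflinks and the build GRCh38 were used, and the library kit keeps no strand. Tool versions, the aligner and the counting method were not given in the sources used here. All 8 members were matched by symbol, and positions and exon lengths were taken from GENCODE v29 (GRCh38). Members and gene lists were chosen with earlier results of these data known.

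Counts were analysed with edgeR 4.0.16 in R 4.3.3: filterByExpr with its minimum count of 10, TMM factors, glmQLFit (robust) with 1 mean per group over 12 libraries (8 residual degrees of freedom) and glmQLFTest, two-sided. The p-values were adjusted by Benjamini-Hochberg over 18844 features, of which 14865 are Ensembl genes, and printed shares are of the latter. SE was computed as |log2 fold change|/√F, and 95% intervals use the t distribution with 8 degrees of freedom. Of each pathway list, up to 2 called rises and 2 called falls per line with the largest change are named. These had no overlap of libraries and a mean log2 CPM of 3 or more, and their values in the other line are given too. SOX1, SOX3, SIX2, CPLX4, VAX1 and SFRP2 were chosen after their values were seen. Marker lists are given by sums and counts only, and some genes are not reported here. Alternatives were other scalings, no filter, Ensembl genes only, only the groups compared, a replicate block, each library left out and DESeq2 1.42.0. The model was tested on simulated data drawn from the WERI DMSO means. There 80% of 2-fold and 59% of 1.5-fold changes in WERI were called (100 genes each), with 8 false calls among 17260 features. Only these genes were changed, as many up as down, so most genes were unchanged, as TMM takes them to be. Error rates under a shift of most genes were not tested. Replicates differed by more than sampling noise in every group. Figures were drawn with matplotlib 3.10.9.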

Additional observations from a re-analysis of the deposited data

Results flagged for a closer look

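The response of 3 members to THZ1 differed between the lines by the interaction term of the edgeR model. SIX3 changed by -1.46 more in Y79 than in WERI on the log2 scale, LHX2 by -1.43 and RAX by -0.69 (adjusted p 6.29e-06, 0.00124 and 0.00114). On the TMM scale SIX3 was higher in 3 of 3 WERI libraries and lower in 3 of 3 Y79 libraries than in the DMSO libraries, but its change in WERI was -0.12 with library size alone and -1.57 with mitochondrial scaling, and that of LHX2 rests on 38 to 66 counts a library in WERI. The cause of these differences was not tested.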

How the results depend on the processing

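Of the 8 members, 5 to 6 were called in WERI, 5 to 6 in Y79, 3 for the difference and 5 to 7 between the lines under every alternative, and the replicate block gave 5, 6, 3 and 6. Replicate numbers did not pair the samples (correlations of -0.044 to 0.005 between libraries of the same number), so the block was not used. Leaving out 1 library gave 5, 6, 3 and 6 to 7 members called. Wherever 7 were called between the lines, the seventh was PAX6, which the filter then let through or which no filter removed; it was called in 7 of the 10 fits without 1 library that tested it (adjusted p 0.0258 to 0.0671 over the 10). Over all tested genes it gave 8869 to 10472 called in WERI, 9497 to 10389 in Y79, 2326 to 5190 for the difference, the last without the second Y79 THZ1 library, and 8739 to 10727 between the lines. Of the members' log2 fold changes, 459 of the alternative values kept direction and call, 2 gained and 2 lost a call and 11 changed sign. Sign changes came with scaling in the main. With library size alone, WERI values were -0.12 for SIX3, -0.04 for NES, -0.18 for HMGA2, -0.14 for SOX12, -0.22 for LHX3, -0.28 for LDB1, -0.22 for MAP2, -0.18 for INA, -0.36 for CPLX4 and -0.25 for EPB41L1, and Y79 values were -0.54 for LHX3 and -0.17 for LDB1. With mitochondrial scaling, WERI values were -1.57 for SIX3, -0.52 for SOX4, -1.24 for SOX11, -1.49 for NES, -1.62 for HMGA2, -1.58 for SOX12, -1.67 for LHX3, -1.73 for LDB1, -0.24 for STMN1, -0.56 for STMN3, -1.67 for MAP2, -1.62 for INA, -1.82 for CPLX4, -1.70 for EPB41L1, -0.65 for HNRNPA3 and -1.38 for ACSL6. In Y79 that scaling gave -0.50 for SOX4, -0.85 for SOX11, -1.04 for NES, -0.95 for TBX2, -1.68 for LHX3, -1.32 for LDB1, -0.21 for STMN1, -0.17 for STMN3, -0.51 for HNRNPA3 and -0.97 for ACSL6, and for the difference between the lines 0.10 for SIX6 and 0.02 for SOX4. The remaining changes of sign are of values near 0. SOX12 in Y79 stood at 0.05 with RLE factors, 0.06 with Ensembl genes only, 0.05 in DESeq2 and 0.02 without the third Y79 DMSO library (range over left-out libraries -0.20 to 0.02). LHX3 in Y79 stood at 0.00 and -0.03 without the first Y79 DMSO or the second Y79 THZ1 library. The SIX6 difference was 0.01, 0.13 and 0.54 without the first WERI DMSO, the second Y79 DMSO or the first Y79 THZ1 library (range -0.63 to 0.54). Depth limits SIX6 in Y79, LHX2 in WERI, PAX6 and SOX2. The ratios kept their sign without any 1 library.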

Other observations

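The 6 tested members have 12 nearest tested protein-coding neighbours, at distances of 1.07 to 2528 kb. In WERI 1 of these was called higher and 5 lower, and 1 had the same call as its member; in Y79 2 were higher and 6 lower, and 4 had the same call. Over all tested genes 27.7% were called higher and 37.2% lower in WERI and 29.9% and 38.5% in Y79. CPLX4 lies 1.07 kb from RAX and was not called in WERI (0.09), where RAX fell. Over the 12 libraries it was the gene found nearest to LHX2, which is on another chromosome. Which member is nearest to CPLX4 was not sought. SIX2, 59.1 kb from SIX3, had at most a mean of 1.28 CPM in a group.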
